A study of Mus musculus with 6 samples.

Results

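Complex I genes are the mouse genes whose symbol starts with Nduf, for subunits and assembly factors of NADH:ubiquinone oxidoreductase, the first enzyme of the mitochondrial respiratory chain. Members were all probe sets to which the array's annotation gives exactly 1 symbol starting with Nduf. This gave 88 probe sets for 44 genes, out of 18193 genes that have a probe set with a single symbol on the array. They were measured in heart tissue of male mice aged 5 to 6 months and fasted for 6 hours, in 3 samples labelled wild type and 3 labelled as knockouts of Cav1, the gene of the caveola coat protein caveolin-1. The labels name no strain, no deleted exon and no further allele or agent. They leave unsaid whether the samples are separate animals, and all p-values refer to the spread among these 6 arrays, which may be technical. Each sample, here called a heart, is 1 Affymetrix array, deposited as 1 intensity per probe set. Wild-type replicate numbers are those of the labels; the knockout samples have none there and were numbered in the order of their records, only to name them.

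Complex I takes electrons from NADH, passes them along a chain of iron-sulfur clusters to ubiquinone and pumps protons out of the mitochondrial matrix. Its core subunits carry out this chemistry. Accessory subunits surround and stabilise them, and assembly factors, named Ndufaf, help to build the enzyme and are not part of it. The heart, which lives largely on fatty acid oxidation, is rich in it. Some core subunits are encoded by mitochondrial DNA and were not analysed here. The members were 6 core genes, 28 accessory genes, 8 assembly factor genes and 2 genes that carry the name but are set apart: Ndufa4, whose product is now assigned to complex IV, and its paralogue Ndufa4l2.

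The labels were checked on Cav1 itself. Its normalised intensity was 3849, 3836 and 4216 in the wild-type hearts, against 118, 101 and 101 in the knockout hearts, so the groups lie far apart in the direction of the labels. Since the deleted part is not named, the probe set may lie outside it. Summed deposited intensity ran from 11736722 to 12397257 per array. Over the whole array, 716 of 22519 tested probe sets (3.18%) passed limma's test at a Benjamini-Hochberg adjusted p of 0.05, and 74.2% of them were higher in knockout, against 90.9% with the intensities as deposited and 93.5% when arrays were centred on their medians.

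Complex I genes had slightly lower values in knockout hearts, almost throughout, and nearly none of them passed the test singly. For each gene the brightest probe set was counted, and 43 of the 44 were bright enough to be tested. The log2 fold change, knockout minus wild type on the scale of log2(intensity + 16), was below 0 in 41 of the 43 and above 0 in 2, Ndufab1 and Ndufa4. The count below 0 was 39 with the intensities as deposited and 36 when arrays were centred on their medians. Among all 11486 tested genes, 54.2% were below 0. The median was -0.073, or 95.1% of the wild-type level, against -0.014 over all tested genes. It was -0.059 as deposited and -0.041 with median centring, where the medians of all tested probe sets were 0.032 and 0.051. Of the 43, 1 gene (Ndufs4) fell, 0 rose and 42 did not pass (limma, adjusted over all probe sets). The background is 1.07% of all tested genes called lower and 2.97% called higher, so a single call among 43 is near the background. At an unadjusted p under 0.05, 18 of the 43 were lower and 0 higher, where 11.0% of all tested genes were lower and 11.1% higher.

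**Figure D1:**
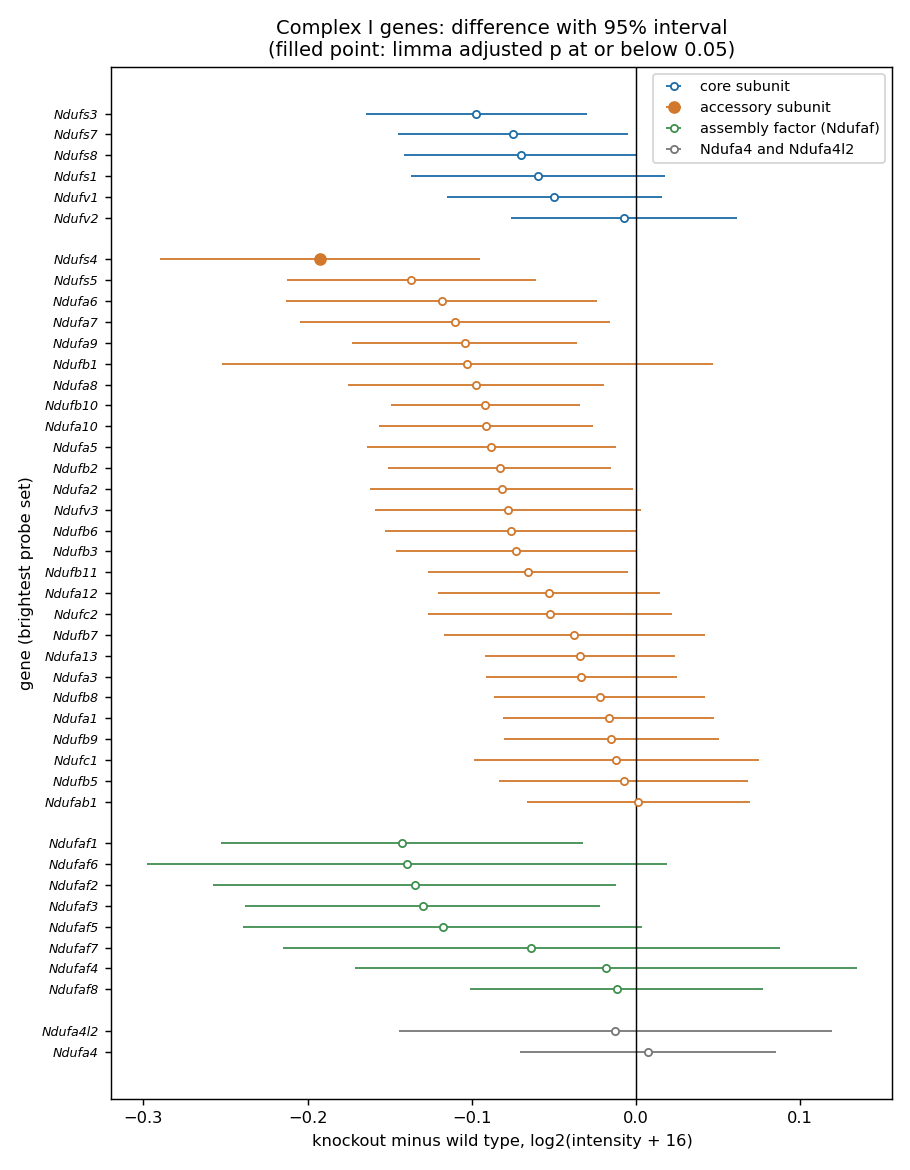
Difference between knockout and wild-type hearts (x axis, log2 scale) of the 43 tested genes (y axis, brightest probe set), coloured by class, with the 95% interval of the limma fit as a bar. Points lie left of 0 in 41 of 43 genes, and the single filled point, past the threshold, is Ndufs4 at -0.19.

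The separation between groups can also be read without a model, from the quantile-normalised values. Counts of separate groups and sums of normalised intensity, here and below, are given for that scaling only. In 23 of the 43 genes every knockout heart lay below every wild-type heart, and in 0 every knockout heart lay above. The shares among all tested genes were 15.2% and 13.5%. Most members are bright: 37 of the 44 lie in the upper 10% of all probe sets. Among the 2908 genes of that brightness, 21.0% had all knockout hearts below all wild-type hearts, 55.1% had a log2 fold change below 0, and the median was -0.015. Of the 37 bright members, 35 were below 0. Summed over all 44 genes, normalised intensity ran from 244586 to 246423 in the wild-type hearts and from 235642 to 236964 in the knockout hearts, so the sums of the groups do not overlap. In whole tissue, fewer cells that hold such RNA and less of it per cell cannot be told apart.

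**Figure D2:**
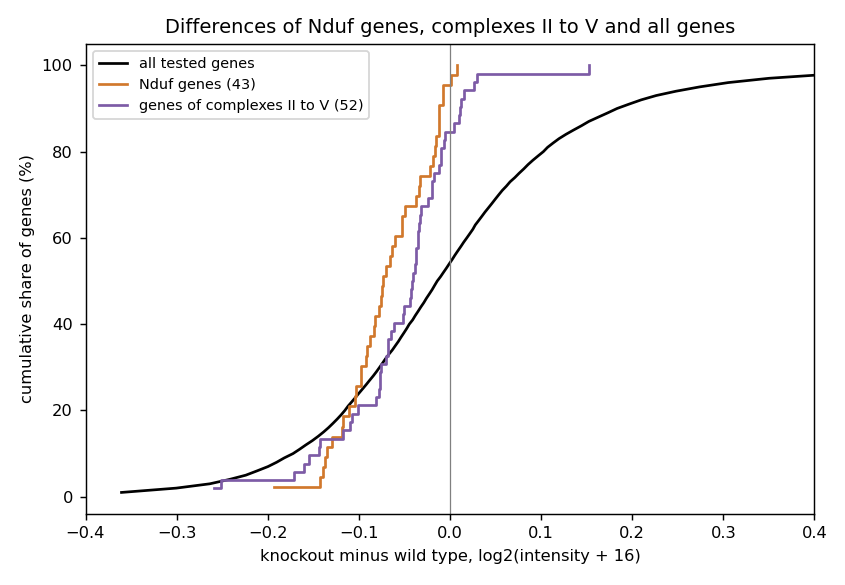
Cumulative share of genes (y axis, %) by difference between knockout and wild type (x axis, log2 scale) for the 43 Nduf genes, 52 genes of complexes II to V and all tested genes. The Nduf curve crosses its median at -0.073 and reaches 0 with 41 of its 43 genes below, while the curve of all genes is wider and has its median at -0.014.

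None of the core genes passed limma's test (2 were lower at an unadjusted p under 0.05, against 11.0% of all tested genes). All 6 had a log2 fold change below 0, against 54.2% of all tested genes, with a median of -0.065 (range -0.097 to -0.0074). Ndufv1 binds NADH and the flavin that first accepts its electrons. Its normalised intensity was 8251, 8380 and 8598 in wild-type hearts and 7941, 8179 and 8251 in knockout hearts. The highest knockout heart equals the lowest wild-type heart, and the log2 fold change was -0.050 (SE 0.029, limma adjusted p = 0.363). Both weaker probe sets of Ndufv1 had separate groups, knockout lower, at -0.072 and -0.080 (limma adjusted p = 0.218 and 0.181). Ndufv2, an iron-sulfur partner of Ndufv1, stood at 8350, 8700 and 8887 against 8700, 8616 and 8483. These groups overlap fully, with a log2 fold change of -0.0074 (95% interval -0.076 to 0.062). Both weaker probe sets of Ndufv2 had separate groups, knockout lower, at -0.078 and -0.089, short of the threshold.

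Ndufs1, the largest subunit, carries several iron-sulfur clusters. It was at 5507, 5379 and 5739 against 5344, 5409 and 5192, where 1 knockout heart lies above 1 wild-type heart (log2 fold change -0.060, SE 0.034, limma adjusted p = 0.356). Ndufs3, at the base of the matrix arm, was at 5927, 5818 and 6062 against 5588, 5600 and 5454. All knockout hearts lie below all wild-type hearts, and the log2 fold change was -0.097 (SE 0.030, limma adjusted p = 0.122). Ndufs7 and Ndufs8 hold the last clusters before ubiquinone. Ndufs7 was at 7014, 7145 and 7315 in wild-type hearts and 6926, 6856 and 6602 in knockout (log2 fold change -0.075, SE 0.031, limma adjusted p = 0.223). Ndufs8 was at 9204, 9226 and 9079 against 8873, 8956 and 8380 (log2 fold change -0.070, SE 0.031, limma adjusted p = 0.253). In both genes the groups do not overlap, and the lowest value of each is that of knockout replicate 3. Single hearts weighed on some of these values: Ndufs8 was at -0.038 without knockout replicate 3, Ndufs1 at -0.033 and Ndufv1 at -0.032 without wild type replicate 3, and Ndufs1 at -0.029 with median centring. The means ± SD (n = 3) of Ndufs3, as an example of the spread, were 5936 ± 122 and 5547 ± 81.0.

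**Figure D3:**
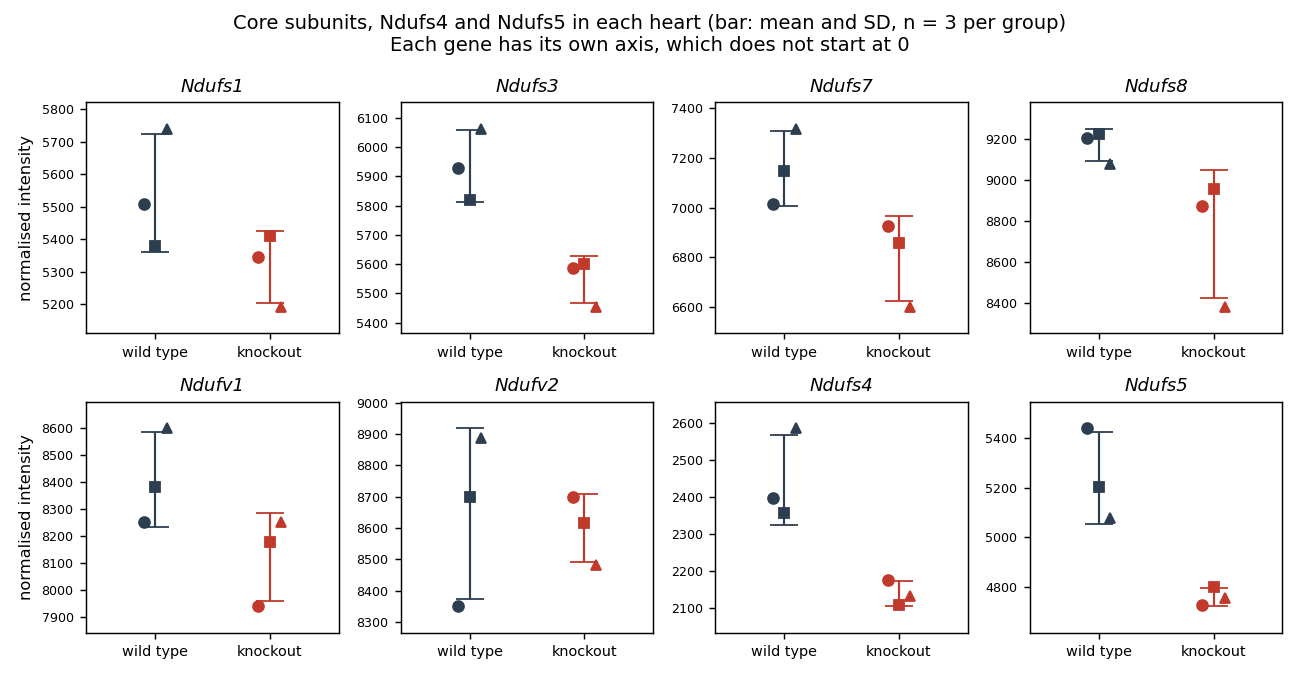
Normalised intensity (y axis, linear, not from 0) of the 6 core genes, Ndufs4 and Ndufs5 in each wild-type and knockout heart, with the mean and SD of each group (n = 3). Groups, at each gene's brightest probe set, are separate for Ndufs3, Ndufs7, Ndufs8, Ndufs4 and Ndufs5. They overlap or touch for Ndufs1, Ndufv1 and Ndufv2.

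Among the accessory genes, Ndufs4 is the only complex I gene past the threshold. It encodes a subunit of the NADH-oxidising end of the matrix arm that joins late in assembly, and its loss in mice causes a complex I deficiency with early encephalopathy. Its intensity was 2396, 2358 and 2586 in wild-type hearts and 2174, 2108 and 2131 in knockout hearts. Every knockout heart lies below every wild-type heart, and the knockout mean was 87.4% of the wild-type mean. It fell by 0.19 on the log2 scale (SE 0.043, 95% interval -0.29 to -0.095, limma adjusted p = 0.0495). The call is at the edge of the threshold and was lost in 12 of 16 alternative settings, including all 6 that leave out 1 heart (limma adjusted p = 0.0505 to 0.164), the intensities as deposited (0.149) and median centring (0.240). The sign was the same in all 16.

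The probe sets of Ndufs4 do not give 1 answer. A second tested probe set stood at 471, 443 and 457 in wild-type hearts and 402, 389 and 415 in knockout hearts, with separate groups and a log2 fold change of -0.18 (SE 0.052, limma adjusted p = 0.109). The third, at 256, 269 and 222 against 310, 221 and 239, had overlapping groups and a log2 fold change of 0.030 (SE 0.12, limma adjusted p = 0.904). A further one was too dim to be tested.

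Ndufs5, an accessory subunit on the intermembrane-space side, came next. Its intensity was 5438, 5202 and 5077 in wild-type hearts and 4727, 4800 and 4756 in knockout hearts, again with no overlap. The log2 fold change was -0.14 (SE 0.034, limma adjusted p = 0.0674), and it passed only when the upper 25% of probe sets were tested (limma adjusted p = 0.0432). At the other end, Ndufab1, the mitochondrial acyl carrier protein, which also serves fatty acid synthesis, had a log2 fold change of 0.0014 (SE 0.030), and Ndufb5, in the membrane arm, of -0.0075 (SE 0.033). Ndufab1 was at 8887, 9455 and 9127 against 9307, 9079 and 9104, and Ndufb5 at 7331, 7526 and 6995 against 7113, 7269 and 7347. Both pairs of groups overlap fully, and both signs flip with the setting: Ndufab1 was below 0 as deposited, Ndufb5 above 0 when median centred.

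The 27 tested accessory genes had a median log2 fold change of -0.076, from -0.19 to 0.0014. Of these, 26 were below 0, against 54.2% of all tested genes. Groups did not overlap, with knockout lower, in 15 of the 27. That share was 15.2% of all tested genes and 21.0% of those in the upper 10% of probe sets. The 15 were Ndufs4, Ndufs5, Ndufv3, Ndufa2, Ndufa5, Ndufa6, Ndufa8, Ndufa9, Ndufa10, Ndufb1, Ndufb2, Ndufb3, Ndufb6, Ndufb10 and Ndufb11. They overlapped in the other 12, Ndufa1, Ndufa3, Ndufa7, Ndufa12, Ndufa13, Ndufab1, Ndufb5, Ndufb7, Ndufb8, Ndufb9, Ndufc1 and Ndufc2. This split holds for the brightest probe set only. Weaker tested probe sets with separate groups, knockout lower, exist for Ndufa7, Ndufa12, Ndufb5, Ndufb7, Ndufc1 and Ndufc2. Conversely, Ndufs4, Ndufa10, Ndufb2 and Ndufb6 each have a weaker tested probe set with overlapping groups. A few of the 15 were chosen for their values after these were seen. Ndufa9, which sits where the matrix and membrane arms meet, was at 5861, 5998 and 5927 against 5399, 5669 and 5475 (log2 fold change -0.10, SE 0.030, limma adjusted p = 0.109). Ndufb10, in the membrane arm, was at 8179, 8198 and 8234 against 7640, 7812 and 7640 (log2 fold change -0.092, SE 0.025, limma adjusted p = 0.0958). Ndufa6 was at 4618, 4878 and 5091 against 4571, 4325 and 4532 (log2 fold change -0.12, SE 0.042, limma adjusted p = 0.170). In these 3 genes too every knockout heart is below every wild-type heart, by a margin that for Ndufa6 is small. Ndufb4 had only a dim probe set of its own, at 11.6 to 14.1 in wild-type hearts and 13.2 to 16.8 in knockout hearts, and was not tested.

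No assembly factor passed limma's test (3 were lower at an unadjusted p under 0.05, against 11.0% of all tested genes). All 8 had a log2 fold change below 0, against 54.2% of all tested genes, with a median of -0.12 (range -0.14 to -0.012). Ndufaf1, a chaperone for the membrane arm, was at 926, 918 and 931 in wild-type hearts and 837, 880 and 794 in knockout hearts, with no overlap (log2 fold change -0.14, SE 0.049, limma adjusted p = 0.158). Ndufaf6 was at 431, 489 and 449 against 378, 430 and 431. Its groups are separated by less than 1 unit of intensity (log2 fold change -0.14, SE 0.070, limma adjusted p = 0.299). Ndufaf2, a late-acting factor related to the subunit Ndufa12, was at 318, 321 and 334 against 301, 298 and 283 (log2 fold change -0.13, SE 0.054, limma adjusted p = 0.214).

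Ndufaf3, which works with Ndufaf4 on the ubiquinone-binding part, was at 777, 783 and 757 against 685, 738 and 691 (log2 fold change -0.13, SE 0.048). Ndufaf4 was at 1008, 978 and 997 against 1090, 972 and 893, so its groups overlap, with the highest and the lowest heart both knockout (log2 fold change -0.018, SE 0.068). Ndufaf5, which hydroxylates Ndufs7, was at 344, 360 and 370 against 331, 334 and 320, with no overlap (log2 fold change -0.12, SE 0.054). Its partner Ndufaf8 was at 1302, 1303 and 1342 against 1296, 1283 and 1335. These groups overlap, at a log2 fold change of -0.012 (SE 0.039), which is above 0 as deposited (0.018) and when median centred (0.036). The weaker probe set of Ndufaf8 was at 349, 340 and 377 against 335, 318 and 321. Its groups were separate (log2 fold change -0.12, SE 0.058, limma adjusted p = 0.274). That of Ndufaf4 was at 0.088 (SE 0.076), with overlap. Ndufaf7, a methyltransferase, was at 213, 234 and 248 against 222, 225 and 214, with overlap (log2 fold change -0.064, SE 0.067). Without knockout replicate 1 Ndufaf6 was at -0.080, and without wild type replicate 2 at -0.090. As deposited and when median centred, Ndufaf1 was at -0.090 and -0.071, Ndufaf2 at -0.065 and -0.046 and Ndufaf6 at -0.067 and -0.048. The median of the 8 factors depended on the scaling and was -0.058 as deposited and -0.039 when median centred.

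Ndufa4 and Ndufa4l2 showed no difference beyond their spread. Ndufa4 was at 8700, 9412 and 9401 in wild-type hearts and 9280, 9150 and 9204 in knockout hearts (log2 fold change 0.0073, 95% interval -0.071 to 0.085), with its sign reversed as deposited (-0.011). Ndufa4l2, a hypoxia-induced paralogue, was at 380, 345 and 375 against 349, 374 and 368 (log2 fold change -0.013, 95% interval -0.14 to 0.12). Ndufa4 and Ndufa5 lie within 10 Mb of Cav1 on its chromosome, where linked sequence and genotype cannot be told apart. Ndufa5 was at 6735, 7155 and 7155 against 6638, 6452 and 6700 and had a log2 fold change of -0.088 (SE 0.034, limma adjusted p = 0.194).

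Of the 44 genes, 22 had more than 1 tested probe set, which gives a second reading on the same arrays. In 18 of the 22 all tested probe sets had the same sign, and in 4 the signs differed (Ndufab1, Ndufb8, Ndufs4 and Ndufaf4). In 14 of the 22 the next-brightest probe set had the lower log2 fold change. The median over these 22 genes was -0.051 at the brightest probe set and -0.086 at the next-brightest. Ndufs8, with 6 tested probe sets, ran from -0.070 at the brightest to -0.27 at the dimmest (160, 129 and 158 against 117, 116 and 129, where the groups touch), and none passed. Ndufab1 had the widest spread, from -0.21 at a probe set of 467, 412 and 482 against 416, 397 and 357 to 0.088 at one of 80.7, 87.7 and 76.6 against 91.0, 87.4 and 84.9. Groups of both of these probe sets overlap. Of all 82 tested Nduf probe sets, 75 were below 0 and 7 above, where 53.1% of all tested probe sets were below 0. Groups did not overlap in 48, all with knockout lower; over all tested probe sets the shares were 14.0% with knockout lower and 12.3% with knockout higher.

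**Figure D4:**
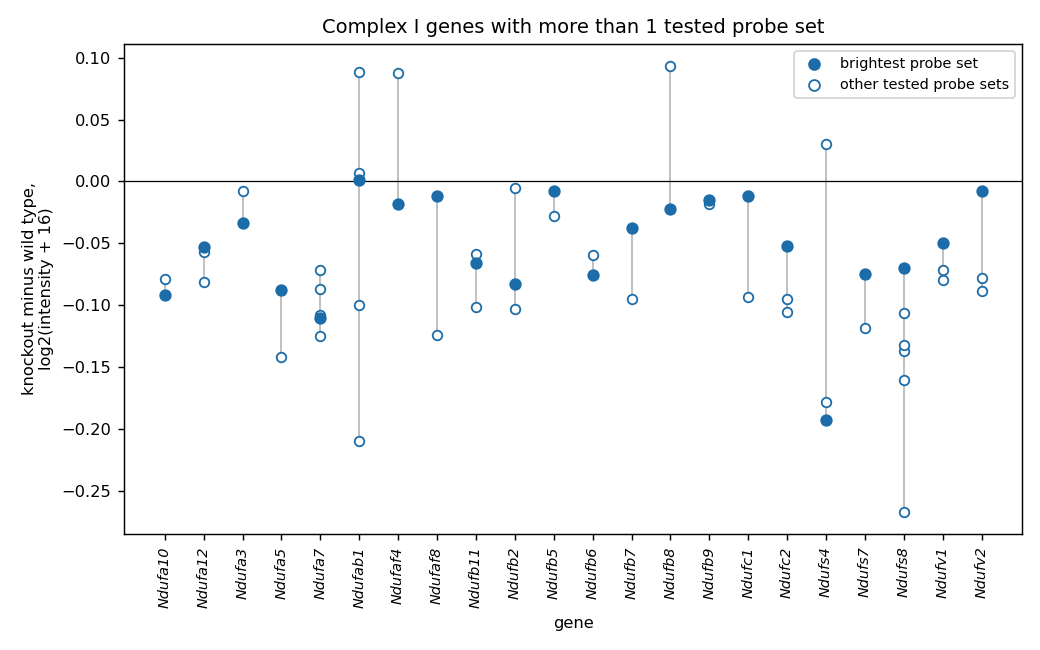
Difference between knockout and wild type (y axis, log2 scale) at every tested probe set of the 22 genes (x axis) that have more than 1, with the brightest filled. The probe sets of a gene share a sign in 18 of the 22 genes, and the longest lines are those of Ndufab1 and Ndufs4.

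The rest of the respiratory chain and the other assembly factors were set beside the Nduf genes, without a test of the difference between lists. Of 13 assembly factors of complex I with other names, 0 passed limma's test (5 were lower at an unadjusted p under 0.05), 13 were below 0 and the median was -0.085. Among all tested genes, 11.0% were lower at that unadjusted p and 54.2% were below 0. In complexes II to V, 44 of 52 genes were below 0 and the median was -0.041. Of the 52, 3 passed, all lower, where 1.07% of all tested genes were called lower. They were Uqcr10, of complex III, at -0.14 (limma adjusted p = 0.0443), Cox7a1, the muscle form of a complex IV subunit, at -0.14 (0.0452), and Atpif1, the inhibitor of ATP synthase, at -0.26 (0.0403). By complex, medians were -0.062 for complex II, -0.044 for III, -0.035 for IV and -0.034 for V, against -0.073 for the 33 tested subunits of complex I. Groups did not overlap, with knockout lower, in 19 of the 52 genes and in 18 of those 33, where the share was 15.2% of all tested genes and 21.0% of the bright ones. With knockout higher it was 1 of the 52, Atp5g3 (13.5% of all tested genes), and 0 of the 33.

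Each heart's mean over a list, relative to all hearts, shows how even the pattern was. Over the 43 Nduf genes it was 0.028, 0.035 and 0.041 in wild-type hearts and -0.037, -0.025 and -0.042 in knockout hearts. Accessory genes ran from 0.029 to 0.039 against -0.040 to -0.031. Core genes lay at 0.011 to 0.058 against -0.056 to -0.013, and assembly factors from 0.015 to 0.069 against -0.081 to -0.019, with wild type replicate 3 highest and knockout replicate 3 lowest in both. The groups did not overlap in any of these 4 lists, and with every single heart left out the median over Nduf genes stayed between -0.080 and -0.065.

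**Figure D5:**
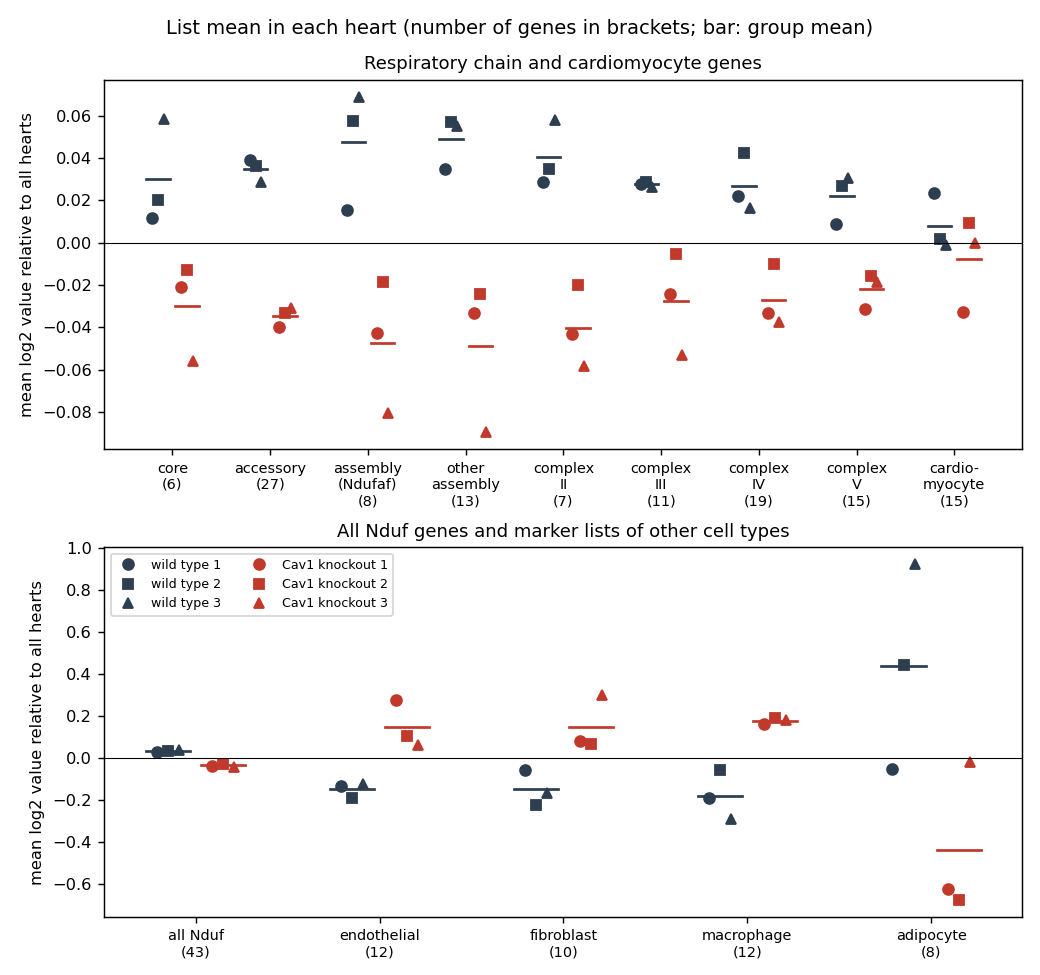
Mean log2 value of each list in each heart, relative to all hearts (y axis), for respiratory chain lists and cardiomyocyte markers (top) and for all Nduf genes beside markers of other cell types (bottom, wider scale), with bars for group means. Wild-type hearts lie above knockout hearts in all respiratory lists, while cardiomyocyte markers mix, and adipocyte markers spread more within the groups than the other lists shown.

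Markers of other cell types were set beside these values. Of 15 markers of cardiomyocytes, the cells that hold most of the heart's complex I, 0 passed (limma; 0 in either direction at an unadjusted p under 0.05). They had a median log2 fold change of -0.0044 and list means of -0.0012 to 0.024 in wild-type hearts and -0.033 to 0.0093 in knockout hearts, with summed intensity of 220776 to 223766 and 217731 to 222543. Some are near the top of the intensity range, such as Myl2 at 21888 to 22270. Of 12 endothelial markers 5 rose, of 12 macrophage markers 6 and of 10 fibroblast markers 3, and none fell, where 2.97% of all tested genes were called higher and 1.07% lower. Their median log2 fold changes were 0.21, 0.29 and 0.18. Summed intensity ran from 7059 to 7437 in wild-type hearts and 8361 to 9596 in knockout hearts for endothelial, from 6792 to 7867 and 8826 to 9075 for macrophage, and from 14066 to 15947 and 16846 to 20309 for fibroblast markers. Log2 fold changes were above 0 in 11 of the 12 endothelial, all 12 macrophage and all 10 fibroblast markers, where 54.2% of all tested genes were below 0. Some were close to 0, such as the endothelial Kdr at -0.039 and the fibroblast Tcf21 at 0.045. The part of these markers in the lower complex I values was not tested.

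Fat markers varied more between hearts of 1 group. Of 12 adipocyte markers, 10 had a probe set annotated with that symbol alone, and 8 of these were tested. Of the 8, 7 were below 0, as most Nduf genes and 54.2% of all tested genes were, and the median was -0.49 (log2). At an unadjusted p under 0.05, 5 were lower and 1 higher, against 11.0% and 11.1% of all tested genes. Past the threshold, Slc36a2 fell by 0.56 (limma adjusted p = 0.0186) and Fabp4, which endothelial cells also express, rose by 0.15 (limma adjusted p = 0.0372). Of all tested genes, 1.07% were called lower and 2.97% higher. Ucp1, which defines brown fat, a tissue rich in mitochondria, was at 83.2, 314 and 802 in wild-type hearts and 20.9, 20.7 and 106 in knockout hearts. Adipoq was at 225, 380 and 816 against 65.1, 53.5 and 262. In both, knockout replicate 3 lies above wild type replicate 1. Summed intensity of the 10 genes, most of it Lpl and Fabp4, was 26290 to 28542 and 26466 to 27328. The list mean was -0.052, 0.44 and 0.92 in wild-type hearts and -0.62, -0.68 and -0.016 in knockout hearts. The part of fat markers in the lower complex I values was not tested.

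Promoter letters were searched as a property that the choice of genes did not use. RefSeq windows of GRCm38.p6, from 250 bases before to 50 after the start, were found for 39 of the 44 genes, 2 of them with more than 1 window. Exact letters were counted on both strands for motifs of 4 factors linked to mitochondrial genes. The longer ones, of YY1 and NRF1, are spelled by the capitals in the sequences printed with them. The YY1 letters were in 4 of the 39 genes (10.3%) and in 0.755% of all 27025 genes with a window. The NRF1 letters, which read the same on both strands, were in 2 (5.13%) against 1.07%. The ETS letters CCGGAAG, bound by GABP, were in 6 (15.4%) against 9.93%, and the ERR letters TGACCTTG in 1 (2.56%) against 1.76%. These are matches of letters, with no measure of binding, and no test was run.

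The 4 YY1 matches are shown because the called gene, Ndufs4, is among them. All read in the direction of the gene, begin 11 to 36 bases into it (first base counted as 1) and are in capitals within 30 bases. The letters contain ATG and were not compared with coding starts. The stretches are Ndufs4 at chr13:114388045-114388074 (- strand), Ndufs7 at chr10:80249464-80249493 (+ strand), Ndufa9 at chr6:126849095-126849124 (- strand) and Ndufaf8 at chr11:120098935-120098964 (+ strand). At the brightest probe set those genes had log2 fold changes of -0.19, -0.075, -0.10 and -0.012, in that order. The weaker tested probe set of Ndufaf8 was at -0.12, so where its match lies in the range depends on the probe set read.
Ndufs4: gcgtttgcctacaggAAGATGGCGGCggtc
Ndufs7: gccgaggccAAGATGGCGGCgctggcgggt
Ndufa9: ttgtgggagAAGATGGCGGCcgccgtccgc
Ndufaf8: gcagggcccAAGATGGCGGCgccctcgaga

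Both NRF1 matches, in capitals, were in assembly factor genes. They are Ndufaf4 at chr4:24897960-24897989 (+ strand), at positions -113 to -104, and Ndufaf5 at chr2:140170652-140170681 (+ strand), at positions 17 to 26. The log2 fold changes were -0.018 and -0.12, in that order.
Ndufaf4: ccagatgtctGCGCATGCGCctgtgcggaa
Ndufaf5: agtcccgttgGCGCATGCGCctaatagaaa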

How the data were processed

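The authors deposited 1 linear intensity for each of 45101 probe sets on 6 arrays. The submitters' processing notes name GCOS 1.4 without a role; probe set summary, background correction and scaling were done in ways not given in the sources used here. Quantile normalisation was added on top.

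Normalisation and tests used limma (version 3.58.1, with R 4.3.3). The deposited intensities were converted, once normalised, to log2(intensity + 16), a scale that compresses changes of dim genes. Control probe sets (64) were removed, and of the other 45037 the upper 50% by mean, 22519, were tested. The contrast, knockout minus wild type without covariates, used lmFit, eBayes with a trend and Benjamini-Hochberg adjustment over all tested probe sets at 0.05. On simulated data it recovered 81.0% of probe sets changed 1.25-fold, the smallest change tried, and false calls were 5.81%. All differences of Nduf genes at the brightest probe set were smaller than 1.25-fold, so the simulation does not show how often such changes are found. Precision is limited by 3 arrays a group. No array was a duplicate of another: at most 2252 intensities were identical in a pair.

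Gene names are those of the platform annotation of 2016, and all 44 Nduf symbols matched RefSeq by gene ID. Another 10 probe sets shared by several genes, among them those of Ndufs6 and Ndufa11, were left out. For 9 genes the counted probe set has the suffix s_at or x_at, which marks possible cross-hybridisation. Named by rule were genes with a probe set past the threshold, core genes, the 5 lowest and 5 highest fold changes, and genes whose probe sets disagree (1 past the threshold and another not, or over 0.2 apart). Other members given with values were chosen after these were seen. Members, lists and motifs were chosen with earlier results of these data known. The 16 alternative settings varied the scaling, pseudocount, filter, variance model and array weights, or left out 1 heart; the probe set counted was varied too.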

Additional observations from a re-analysis of the deposited data

How the results depend on the processing

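The median log2 fold change over Nduf genes was below 0 in every setting tried. It was -0.059 as deposited and -0.041 when median centred, -0.093 at the next-brightest probe set (chosen after seeing the data), and -0.080 to -0.065 with each heart left out. Relative to the median of all probe sets, which was 0.032 as deposited and 0.051 when median centred, it was -0.092 in both. The count of Nduf genes below 0 was 39 as deposited and 36 when median centred. The count called lower was 0 as deposited, with median centring, a pseudocount of 64, the upper 75% of probe sets, no filter, eBayes without trend and the next-brightest probe set, 0 with any heart left out, and 2 with the upper 25%. The count called higher was 0 throughout. Calls over all probe sets were 414 without trend, 1172 with array weights, and 189 to 744 with each heart left out: 189 and 227 when knockout replicates 1 and 2 were omitted in turn, 298 and 471 when wild type replicates 3 and 1 were. The cause was not tested.

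Among named genes, signs reversed for 5 genes near 0. Ndufv2 ran from -0.032 to 0.012 with each heart left out, above 0 in 2 cases (0.012 and 0.0024). Ndufab1 was -0.017 as deposited, -0.0026 with array weights and -0.021 to 0.025 with each heart left out (-0.011 for knockout replicate 1). Ndufb5 was 0.0092 with median centring, 0.010 with array weights and -0.036 to 0.016 with each heart left out (0.0044 for knockout replicate 1). Ndufaf8 was 0.018 as deposited, 0.036 with median centring and -0.028 to 0.0026 with each heart left out. Ndufa4 was -0.011 as deposited, -0.014 with array weights and -0.030 to 0.026 with each heart left out. Of 240 values of named genes over all settings, 211 kept sign and call, and the 12 lost calls were all of Ndufs4. No paired analysis was possible because the labels give the knockout samples no replicate number.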

Other observations

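Genes that regulate mitochondrial gene expression were set beside the complex I genes. Of 10 such genes, 0 passed limma's test, and 8 were below 0, against 54.2% of all tested genes, with a median log2 fold change of -0.098. At an unadjusted p under 0.05, 4 were lower and 0 higher, against 11.0% and 11.1% of all tested genes. The following were chosen after their values were seen. Ppara, the nuclear receptor of fatty acid oxidation genes, was at 598, 670 and 660 in wild-type hearts and 463, 538 and 542 in knockout hearts (log2 fold change -0.31, SE 0.073, limma adjusted p = 0.0568). Ppargc1a, the coactivator of mitochondrial biogenesis, was at 693, 771 and 683 against 653, 602 and 567 (log2 fold change -0.23, SE 0.068, limma adjusted p = 0.109). Every knockout heart lay below every wild-type heart in both genes. Gabpa had a log2 fold change of 0.030, Yy1 of 0.096 and Tfam of -0.049, all with overlapping groups.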
